A study of Drosophila melanogaster with 6 samples.

Results

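The imaginal disc growth factors are the 6 genes *Idgf1*, *Idgf2*, *Idgf3*, *Idgf4*, *Idgf5* and *Idgf6* of *Drosophila melanogaster*, and each was followed here in sorted cells of the larval wing disc. Probe sets were chosen by name alone, as those whose single gene symbol in the platform annotation is one of the 6. There was 1 probe set for each gene, so the family is 6 of the 10845 named genes and 6 of the 13966 probe sets other than controls. The wing discs came from late third-instar larvae with the E(spl)m4-GFP reporter, in which a Notch target gene of proneural clusters lends its regulatory DNA to GFP, and both groups carry it. About 200 discs were pooled for a sample and dissociated with trypsin, and discs of the w1118 strain without the reporter set the fluorescence threshold. GFP-positive samples held all cells above the threshold and GFP-negative samples held 100000 cells below it, with 3 arrays in each group. Whether replicates were dissected separately is not stated in the labels. Each p-value thus reflects only how far these 6 samples differ among themselves, and that spread may be technical.

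IDGFs are secreted proteins of the glycosyl hydrolase family of chitinases that have lost the residue needed to cut chitin. They were first described as factors in conditioned medium that, together with insulin, let imaginal disc cells in culture grow and divide. Larval fat body and hemocytes (blood cells) are known sources of IDGFs, and the proteins have also been tied to cuticle formation and to the response to wounds.

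Each array gives a Signal, a linear brightness in arbitrary units, and a call of Present, Marginal or Absent for each probe set. The arrays called 4321 to 5039 of 14010 probe sets Present, and the number of arrays limits the precision of every value below. The sort was checked on genes known from proneural clusters and sensory organ precursors. Of 6 tested, 4 rose in the GFP-positive group, beside 2.99% of all tested probe sets called in either direction. The other 2, *neur* and *sc*, were higher without passing (limma adjusted p = 0.0554 and 0.0926). *insv*, *mira* and *E(spl)m4-BFM* were Present on all 3 GFP-positive arrays and on no GFP-negative array. *phyl*, the other gene that rose, and *sc* were Present on all 3 GFP-positive arrays and on 1 GFP-negative array. All of these genes were thus tested only through the group where they are bright. Regulatory DNA of *E(spl)m4-BFM* drives the reporter, so the sort itself largely set the direction of this gene. It averaged 2353 ± 232 units above the threshold and 236 ± 163 below it (Signal, SD, n = 3). Of 7 markers of the wing disc epithelium, *vg*, *ap*, *pnr* and *Dr* were Present on all 6 arrays, while *nub*, *tsh* and *Dll* were Present on none.

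The family was thinly detected. *Idgf3* was called Present on all 6 arrays and *Idgf4* on 1 array, while the other 4 genes were Present on no array. By comparison 25.5% of all probe sets were Present on all 6 arrays, 4.31% on 1 and 59.1% on none. Probe sets were tested where 2 or more of 3 arrays in either group called them Present, so *Idgf3* is the 1 member tested and it did not pass. In that fit (limma on log2(Signal + 16), adjusted p under 0.05 over all tested probe sets) 2.99% of the 4943 tested probe sets were called. The differences of the other 5 members come from the same model fitted to all 13966 probe sets without this filter. That fit called none of the 6 members, 1 of which had an unadjusted p under 0.05, and it called 0.695% of all probe sets. An unadjusted p under 0.05 was found for 10.1% of all probe sets in that fit. With the replicate number as a block, which pairs the arrays of a number, it called 1 member, *Idgf4*, and 1.02% of all probe sets.

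**Figure D1:**
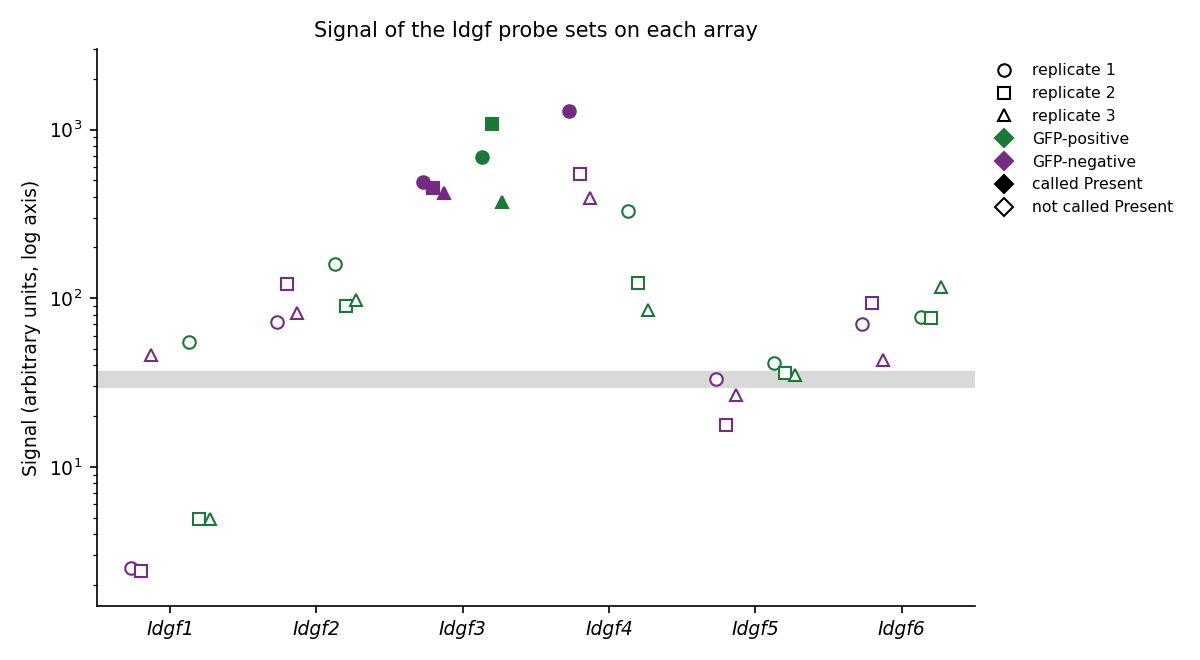
Signal of each Idgf probe set on each of the 6 arrays on a log axis, with GFP-negative arrays in purple to the left and GFP-positive arrays in green to the right of each gene. Symbols give the replicate number, filled symbols are Present calls, and the grey band spans the lowest Signal called Present on each array, 29.4 to 36.8 units. Filled symbols appear for *Idgf3* on all 6 arrays and for *Idgf4* on GFP-negative replicate 1.

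*Idgf3*, a member studied for its part in wound healing, was the one detected in both groups of cells. Its Signal was 487, 449 and 422 on GFP-negative replicates 1, 2 and 3, and 691, 1076 and 369.9 on GFP-positive replicates 1, 2 and 3. The GFP-negative arrays lay close together, while GFP-positive replicate 2 was the brightest and GFP-positive replicate 3 the dimmest of all 6, so the groups overlapped. The detection p-values were between 0.00316 and 0.00928. The GFP-positive mean was 712 ± 353 and the GFP-negative mean 452.5 ± 32.9 (SD, n = 3). The log2 difference, GFP-positive minus GFP-negative, was 0.51 (SE 0.34, 95% interval -0.24 to 1.27, limma adjusted p = 0.555). The two-sided exact permutation test over the 6 arrays gave p = 0.4. On the log2 scale the SD was 0.75 among the GFP-positive and 0.10 among the GFP-negative arrays.

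The difference of *Idgf3* rests on single arrays. Leaving out GFP-positive replicate 2 gave 0.16 and leaving out replicate 3 of that group gave 0.91, and neither fit passed the threshold (adjusted p = 0.842 and 0.177). Arrays of the same replicate number went both ways. *Idgf3* was 1.42-fold and 2.40-fold brighter in the GFP-positive array of pairs 1 and 2, and 1.14-fold brighter in the GFP-negative array of pair 3. A difference between the groups was therefore not detectable with 3 arrays each.

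*Idgf4*, the member on the X chromosome, was dimmer on every GFP-positive array than on any GFP-negative array. Its Signal was 1291, 546 and 395 on GFP-negative replicates 1, 2 and 3, and 329, 122.7 and 85.6 on GFP-positive replicates 1, 2 and 3. The groups do not overlap, and within each group replicate 1 was brightest and replicate 3 dimmest. Groups that do not overlap, in either direction, were found for 2 of the 6 members and for 16.6% of all probe sets. Within a replicate pair the GFP-negative array was 3.93-fold, 4.45-fold and 4.61-fold brighter. In a bulk sample, fewer cells that express the gene and less RNA in each such cell cannot be told apart.

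**Figure D2:**
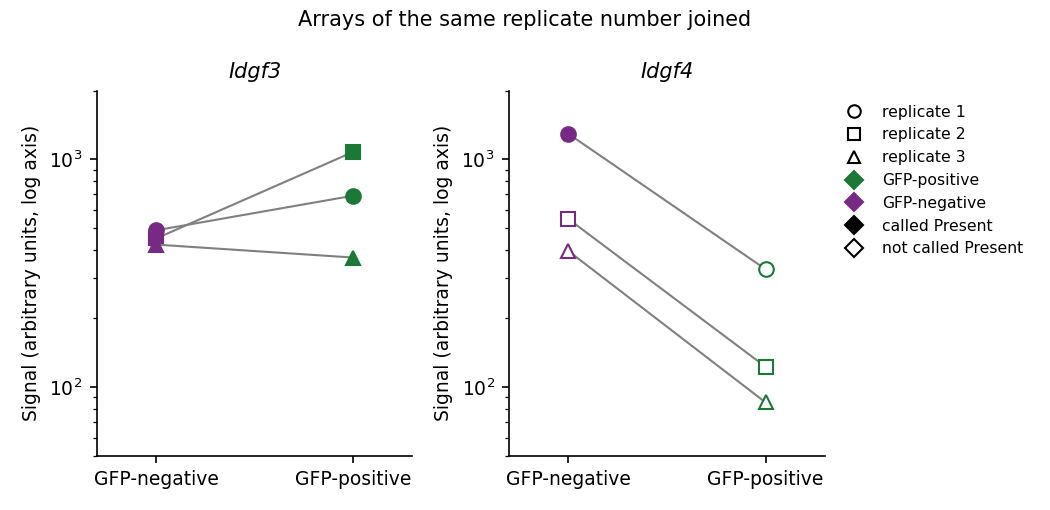
Signal of *Idgf3* (left) and *Idgf4* (right) in each group on a log axis, with lines joining the GFP-negative and GFP-positive arrays of 1 replicate number. Filled symbols are Present calls. The 3 lines of *Idgf4* run down side by side, from 1291 to 329, 546 to 122.7 and 395 to 85.6 units, while those of *Idgf3* go in both directions.

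The test of *Idgf4* depended on whether arrays of the same replicate number were taken as pairs, a choice made from these same data. Its means were 744 ± 479.6 in GFP-negative and 179 ± 131 in GFP-positive cells (SD, n = 3). Without the block, the fit to all probe sets gave a log2 difference of -1.99 (SE 0.53, 95% interval -3.18 to -0.79) with limma adjusted p = 0.187 and unadjusted p = 0.00447. With the replicate number as a block the difference was the same, with SE 0.28, a 95% interval of -2.61 to -1.37 and limma adjusted p = 0.00919. The two-sided exact permutation test, which ignores the pairs, gave p = 0.1, the smallest that 3 arrays against 3 allow. The difference was -1.92 in the pair of arrays hybridised on the first day and -2.02 in the 4 arrays of the second day. It was -1.31 in the chip lot of 3 arrays, which holds a single GFP-positive array, and -2.02 in the lot of 2, and GFP-positive replicate 2 was alone in its lot.

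*Idgf4* was mostly called Absent, although its Signal lay above the lowest Signal called Present on every array. GFP-negative replicate 1 called it Present. All the other arrays called it Absent, with detection p-values that reached 0.389. The fitted difference corresponds to a 3.96-fold lower value on the Signal + 16 scale, an estimate that rests on 1 Present call in the GFP-negative and 0 in the GFP-positive group. How common Absent calls are at such brightness differed by array, as did the Signal itself. On GFP-negative replicate 2, 13.1% of the 405 probe sets within 1.1-fold of its Signal were called Absent, and on replicate 3 it was 45.6% of 485. On the GFP-positive arrays the same share was 53.3%, 87.2% and 93.0% in replicates 1, 2 and 3. A second probe set is annotated to both *Idgf4* and *CG4982*, so it names neither gene. It was Absent on all 6 arrays at 40.2 to 96.3 units, with groups that overlapped.

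**Figure D3:**
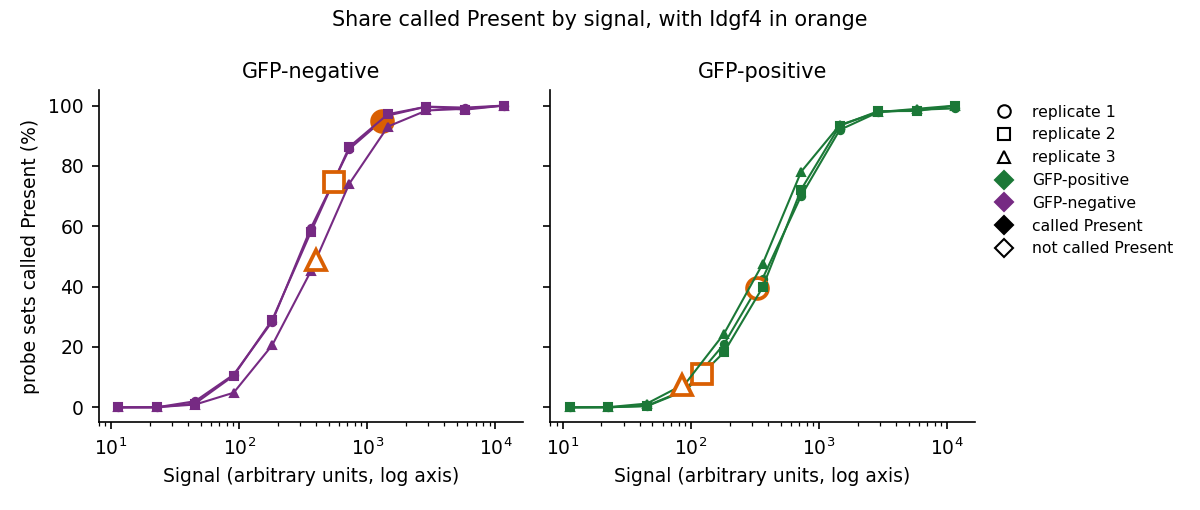
Percent of probe sets called Present in each doubling of Signal (log axis), for the 3 GFP-negative arrays (left) and the 3 GFP-positive arrays (right). Large orange symbols mark *Idgf4*, placed on each array's curve at its own Signal and filled where it was called Present. *Idgf4* sits at 85.6 to 329 units on the GFP-positive arrays and at 395 to 1291 units on the GFP-negative arrays.

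*Idgf1* and *Idgf2*, the neighbours of *Idgf3* on chromosome arm 2L, were Present on no array. *Idgf1* read 55.2 units on GFP-positive replicate 1 and 46.2 on GFP-negative replicate 3, and between 2.4 and 4.9 on the other 4 arrays. *Idgf2*, which encodes a growth factor of cultured disc cells, ranged from 72.4 to 121.7 in GFP-negative and from 89.8 to 159.4 in GFP-positive cells. The groups overlapped for both genes. The log2 differences without the filter were 0.18 (95% interval -1.12 to 1.49) for *Idgf1* and 0.28 (-0.60 to 1.16) for *Idgf2*, and their limma adjusted p-values were 0.939 and 0.855.

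*Idgf5* and *Idgf6*, on chromosome arm 2R, were likewise Present on no array. *Idgf5* read 34.9 to 41.2 units in GFP-positive and 17.8 to 33.4 in GFP-negative cells. These groups do not overlap, but the values lie around the lowest Signal that any array called Present, 29.4 to 36.8 units. Its log2 difference was 0.36 (95% interval -0.30 to 1.02, limma adjusted p = 0.746 without the filter). *Idgf6*, known as a protein that blood cells and a blood-cell-derived line secrete, ranged from 42.9 to 94.0 in GFP-negative and from 75.9 to 115.9 in GFP-positive cells, and its log2 difference was 0.34 (-0.56 to 1.24, adjusted p = 0.831). For these 4 members a difference was not detectable, and expression below the limit of detection is possible in either group.

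**Figure D4:**
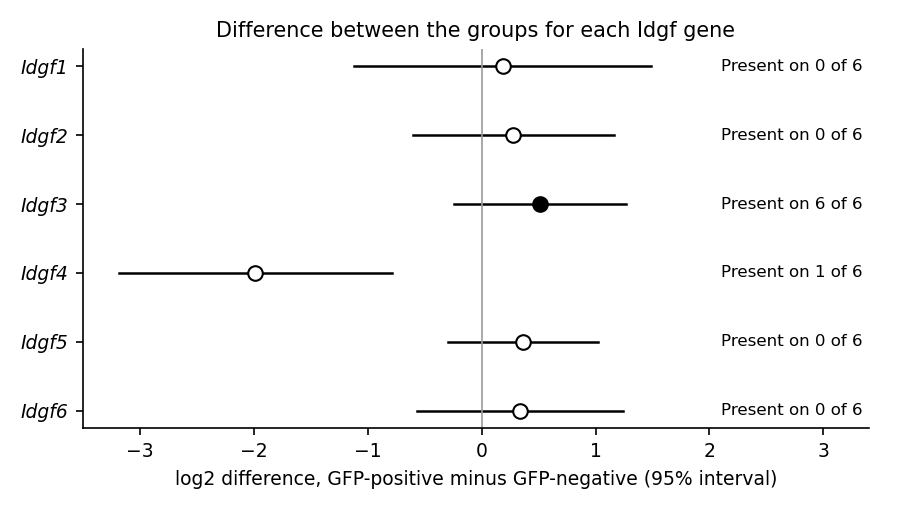
Log2 difference between the groups (GFP-positive minus GFP-negative) for each Idgf gene, with the 95% interval of the limma fit without a block. The filled point (*Idgf3*) comes from the tested probe sets and open points from the fit without a filter. The interval of *Idgf4*, -3.18 to -0.79, is the only one of the 6 that lies on 1 side of 0.

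Across the family, 5 members had a positive and 1 a negative log2 difference. The median over the 6 was 0.31, beside 0.09 over all probe sets in the same fit, where 59.0% of probe sets had a positive sign. Since 4 of the 6 were Present on no array and the sign of *Idgf1*, *Idgf2*, *Idgf3* and *Idgf6* turned in some settings, nothing is read from these signs or from the median. No test was made of the members against each other, and levels of different probe sets are not compared, because probes differ in brightness.

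*Idgf1*, *Idgf2* and *Idgf3* are neighbours with no other protein-coding gene between them in the RefSeq annotation of the Release 6 assembly. The nearest measured genes on either side were *CG5888* and *dac*, a nuclear factor of leg and eye development. Both were Present on no array, and their log2 differences were -1.47 (limma adjusted p = 0.223) and -0.92 (adjusted p = 0.471) without the filter. Next to *Idgf4* on the X chromosome, *CG1986* and *CG1791* had 0.50 (adjusted p = 0.79) and 0.55 (adjusted p = 0.58). Both were Present on no array, so their signs are not set against that of *Idgf4*. The nearest measured neighbours of *Idgf5*, *BomS6* and *GstE10*, and of *Idgf6*, *Pgant9* and *CG15617*, were also Present on no array.

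The genes whose pattern was most like that of *Idgf3* over the 6 arrays were *CG13325* (Pearson r = 0.991), *CG42240* (0.979) and *CG15549* (0.971), out of 4336 named probe sets compared on the log2 scale. As for *Idgf3*, GFP-positive replicate 2 was the brightest array for each, at 143.5, 770.0 and 469 units. Their log2 differences were 0.21, 0.22 and 0.25 and none passed (limma adjusted p = 0.821, 0.774 and 0.676). The values share the same 6 arrays, and these r are the highest of many, so they describe the arrays and have no p-value.

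Among the active chitinases, the enzymatic relatives of the IDGFs, 1 of 4 tested genes fell and 0 rose. Over all tested probe sets 2.99% were called, in either direction. *Cht5*, which breaks down old cuticle at the moult, read 560.2, 464 and 542 on GFP-negative replicates 1, 2 and 3, and 149.8, 199.8 and 164.5 on GFP-positive replicates 1, 2 and 3. It was Present on all 3 GFP-negative arrays and on no GFP-positive array, so it passed the filter through the group where it is bright. It was at least 2.88-fold lower in GFP-positive cells (log2 -1.53, SE 0.23, 95% interval -2.04 to -1.01, limma adjusted p = 0.00558). Here and below, "at least" says only that the dimmer group was not detected on any array. For *Cht5* the value is the fitted fold, and its interval includes smaller folds. Its call was lost in the 4 arrays of the second day (log2 -1.39, adjusted p = 0.0593) and in the lot of 3 arrays (log2 -1.67, adjusted p = 0.0623), where the single GFP-positive array is assumed to vary like the GFP-negative ones. *Cht2* (log2 -0.15, adjusted p = 0.815), *Cht10* (-0.12, 0.895) and *Cht6* (-0.06, 0.951) did not pass, and the other 5 of the 9 chitinase genes were Present on no array. The list's median was -0.14 over the 4 tested genes, beside -0.01 over all tested probe sets.

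Of 6 tested genes of chitin synthesis and organisation, 0 passed in limma; the unadjusted p was under 0.05 for 3, as it was for 14% of all tested probe sets, the share against which the same counts of the lists below are to be read. *obst-B* and *obst-A*, which encode chitin-binding proteins of the cuticle, had log2 differences of 0.86 (adjusted p = 0.166) and -0.65 (adjusted p = 0.363). The list's median was 0.20, and *kkv*, the chitin synthase of the epidermis, was Present on no array.

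The insulin pathway, with which IDGFs cooperate in culture, had 6 tested genes. Of these 0 passed in limma, and the unadjusted p was under 0.05 for 0; the median was 0.17. The kinase gene *Akt* had a log2 difference of -0.49 (adjusted p = 0.439) and *ImpL2*, a secreted binder of insulin-like peptides, of 0.44 (adjusted p = 0.554). The receptor gene *InR* and the ligand genes *Ilp2*, *Ilp7* and *Ilp8* were Present on no array.

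The other family of secreted disc growth factors, the adenosine deaminase-related *Adgf* genes with *Ada* and the receptor gene *AdoR*, had 7 genes here, of which 6 were Present on no array and 0 were tested. Of 5 tested genes for other secreted growth factors, 0 passed in limma; the unadjusted p was under 0.05 for 1, and the median was 0.20. The EGF receptor ligand genes *Krn* and *spi* had log2 differences of 0.63 (adjusted p = 0.293) and 0.40 (adjusted p = 0.489).

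Markers of cell types that a wing disc sample can hold beside the epithelium are given here next to *Idgf4*. For adult muscle precursors, the mesodermal cells attached to the notum, some markers were also lower in GFP-positive cells. Only the direction between the groups is compared here. The 5 measured markers summed to 896 to 989 units on the GFP-positive and 2249 to 2608 on the GFP-negative arrays. Most of each GFP-positive sum was the Signal of *sns*. Of the 3 markers tested, 2 fell, beside 2.99% of all tested probe sets called in either direction. The 2 that fell, *Him* and *htl*, were Present on all 3 GFP-negative arrays and on no GFP-positive array. Both thus passed the filter only through the group where they are bright. *Him*, which holds back muscle differentiation, was lower by at least 13.2-fold (limma adjusted p = 0.000134). *htl*, an FGF receptor gene, was lower by at least 8.38-fold (adjusted p = 0.000271). The defining marker *twi* was Present on no array (Marginal on 1, Absent on 5) and read 523 to 604 units in GFP-negative and 31.9 to 66.7 in GFP-positive cells (log2 -3.13 without the filter, adjusted p = 0.00489). *zfh1*, also Present on no array, had -1.99 (adjusted p = 0.0704 without the filter), and *sns*, Present on all 6 arrays, went the other way without passing (712 to 856 units in GFP-positive and 398 to 624 in GFP-negative cells, log2 0.53, adjusted p = 0.36). The part of these cells in the difference of *Idgf4* was not tested.

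**Figure D5:**
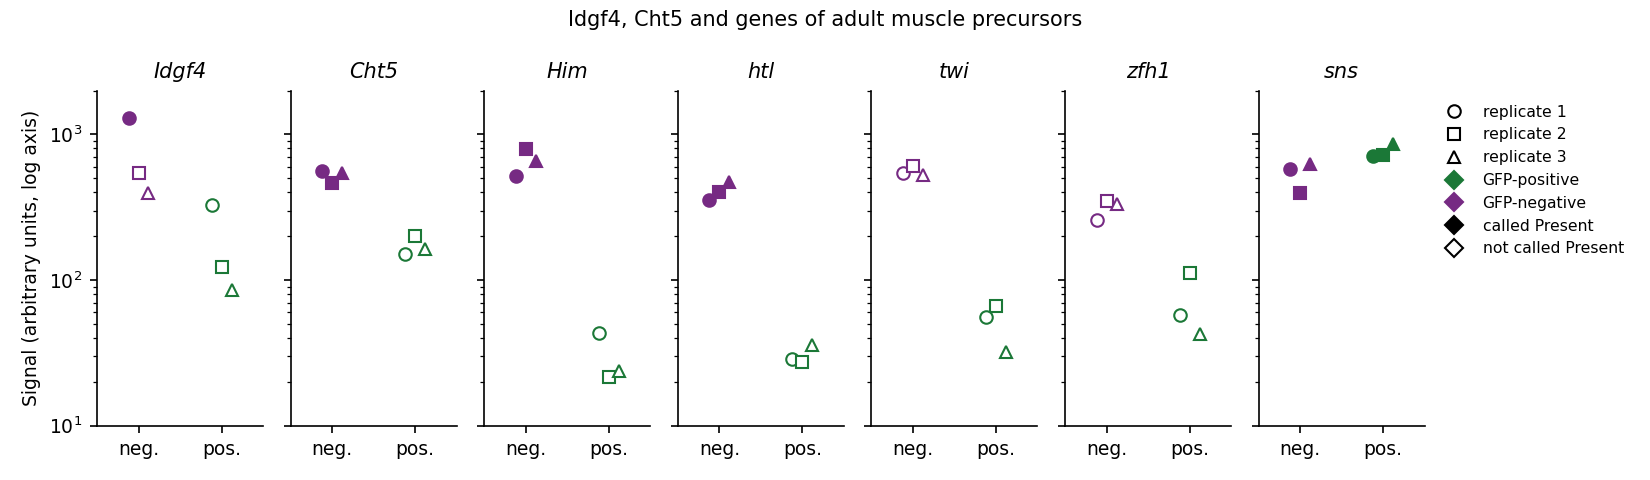
Signal on each array (log axis) for *Idgf4*, the chitinase gene *Cht5* and the 5 measured markers of adult muscle precursors, in GFP-negative (neg., purple) and GFP-positive (pos., green) cells. Symbols give the replicate number and filled symbols are Present calls. The 3 GFP-positive arrays lie below the 3 GFP-negative arrays in every panel but that of *sns*, where they lie above them, and *twi* and *zfh1* have no filled symbol.

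Most markers of the known sources of IDGFs outside the disc were not detected. The scavenger receptor gene *crq* was an exception, Present on all 6 arrays at 334 to 706 units, and *srp* was Present on 3 arrays. Of 9 hemocyte markers, 7 were Present on no array, among them *Hml*, *NimC1* and *eater*, and of the 2 tested (*srp* and *crq*) 0 passed and 0 had an unadjusted p under 0.05 in limma. The 9 summed to 1009 to 1196 units in GFP-positive and 856 to 1181 in GFP-negative cells. Most of each sum came from *crq* and from *PPO2*, which was Absent on all 6 arrays at 148.7 to 580.1 units. The sums are therefore not read as amounts of hemocyte RNA. Of 4 fat body markers, 3 were Present on no array, and the 4 had sums of 494 to 734 and 536 to 583. Most of each fat body sum came from *Lsp2*, which was Absent on all 6 arrays. The 3 glial markers summed to 456 to 739 in GFP-positive and 843 to 932 in GFP-negative cells; *nrv2* had a log2 difference of -0.71 (adjusted p = 0.19), *repo* of -0.09 (adjusted p = 0.937), and *moody* was Present on no array. The tracheal marker *btl* and the peripodial markers *odd* and *drm* were Present on no array. The part of any of these cells in the values of the IDGF genes was not tested.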

How the data were processed

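Total RNA of 6 sorted samples was hybridised to Affymetrix DrosGenome1 arrays, 1 per sample. Per the file headers, the deposited intensity is a Signal from the Affymetrix statistical expression algorithm, scaled on each array to a target of 500, and the deposited detection p-value comes from the same algorithm (Alpha1 0.04, Alpha2 0.06, Tau 0.015). Per the file headers, settings of each array run (an other kind of record, not a measurement) give the hybridization day and chip lot. The series table equals the array Signal for all 14010 probe sets, so it was not a separate alternative. The genome build is not given in the sources used here.

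Platform annotation gave 12443 probe sets 1 symbol, 327 several and 1196 none; 12394 symbols were updated through a RefSeq gene table. The 2%-trimmed means were equal (500.1), so signals were used as deposited. Probe sets Present on at least 2 of 3 arrays of a group were fitted with limma 3.58.1 (R 4.3.3; group only, intensity trend, two-sided, Benjamini-Hochberg); the code was tested on simulated data. No count of molecules underlies these values, so no depth is given. Members, gene lists and tests were chosen with earlier results of these data known. Named genes were all 6 members with every probe set, the list genes that passed with the 2 largest others, the 3 most correlated genes of each tested member and the nearest measured neighbours. Some other list genes were named outside this rule, among them genes Present on no array. A gene with several probe sets was represented by its brightest. Entries of a list that no single-symbol probe set carries were not analysed here.

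Replicate numbers from the titles were taken as pairs only for the replicate block and for the ratios within a pair. The choice was made because deviations from the group means correlated within each number (0.402, 0.102 and 0.122). However, only 4 of 6 arrays correlated best with their own number. The main fit used the group only, so its calls and p-values ignore the pairs. Alternatives were pseudocounts of 1 and 64, other filters, quantile and median scaling, replicate, day and lot blocks, fits within a day or lot, no intensity trend, a robust fit and leaving out each array.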

Additional observations from a re-analysis of the deposited data

How the results depend on the processing

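No alternative changed the direction of *Idgf4* or *Idgf5*. *Idgf4* had a log2 difference of -1.99 and passed the threshold when replicate numbers formed a replicate block (adjusted p = 0.00919), when hybridization day did (-1.99, adjusted p = 0.0121) and, in a filter added after the data were seen, Present on at least 1 array with the replicate block (-1.99, adjusted p = 0.000212); the same filter without the block gave adjusted p = 0.0768. In its other 18 settings, of which the single pairs had no test, *Idgf4* did not pass, with values between -2.50 and -1.31. *Idgf3* did not pass in any setting, and its sign turned in the lot of 2 arrays (-0.18). *Idgf1* turned in the second day's arrays (-0.69), in the lot of 2 arrays (-1.57) and when single arrays were left out (-0.40 to 0.77: -0.40 without GFP-positive replicate 1, and -0.11 without GFP-negative replicate 1 or 2), and was 1.94 in the first day's pair. *Idgf2* turned in the second day's arrays (-0.08) and was 0.99 in the first day's pair. *Idgf6* turned in the lot of 3 arrays (-0.06) and was 1.16 in the lot of 2. The cause was not tested. The 148 probe sets called became 257 under the replicate block, 229 under the day block, 76 in the second day's arrays, 84 in the lot of 3 arrays, 97 with no filter and 50 among those Present on all 6 arrays, and 69 to 153 with 1 array left out (69 and 98 without GFP-negative replicates 2 and 3, 78 and 84 without GFP-positive replicates 1 and 3).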

Other observations

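The case of *Idgf4*, a difference at signals that the arrays mostly called Absent, was not alone. Among the 602 probe sets Present on a single array, 1 other had a log2 difference as low without the filter, *Sox15*, a transcription factor gene of the wing hinge (GFP-positive mean 33.6 ± 28.0, GFP-negative mean 186 ± 58.7, SD, n = 3; log2 -2.13, limma adjusted p = 0.101, and 0.103 when blocked on replicate). The fit without a filter called 97 probe sets, of which 23 were Present on at most 1 array. The lower ones among these 23 included the muscle precursor gene *twi*, the collagen IV gene *vkg* (log2 -2.67, adjusted p = 0.0109) and *Gfat2*, an enzyme gene at the start of the amino sugar route to chitin (GFP-positive mean 234 ± 162, GFP-negative mean 1224 ± 330.3; log2 -2.45, adjusted p = 0.0325). The higher ones included *sens*, a transcription factor gene of sensory organ precursors (log2 1.91, adjusted p = 0.0381). These genes were chosen after their values were seen.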
